A study of Mus musculus with 6 samples.

Results

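The nuclear genes that encode subunits of the respiratory chain and of the mitochondrial ATP synthase were followed in stomach RNA from mice given Riclin or saline. They were chosen by symbol: every Nduf gene of the a, b, c, s or v series, the Sdh genes, the Uqcr genes with Cyc1, Cycs, and the genes whose symbols begin with Cox4i, Cox5, Cox6, Cox7, Cox8 or Atp5, with pseudogenes left out. The rule found 85 of the 23550 genes in the table, made up of 37 of complex I, 4 of complex II, 9 of complex III, cytochrome c, 17 of complex IV and 17 of complex V. Ndufab1, a complex I subunit whose symbol has another form, lies outside it. Riclin, a bacterial exopolysaccharide, was given by gavage at 20 mg/kg for 14 days, and the controls received saline by the same route, for which the sample labels print the same dose. RNA from stomach was sequenced in 3 libraries per group, numbered 2, 3 and 4 for Riclin and 1, 2 and 4 for saline, and values are given below in that order. The labels give no strain, sex or age. The series also describes an ethanol injury experiment, and the labels do not say whether these mice received ethanol or whether each library is 1 animal, so p-values measure the spread between these libraries, which may be technical.

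Complexes I and II pass electrons from NADH and succinate to ubiquinone, complex III passes them on to cytochrome c, and complex IV passes them to oxygen. Complexes I, III and IV pump protons across the inner mitochondrial membrane, and complex V, the ATP synthase, uses the returning protons to make ATP. Most subunits are nuclear genes, but a small set in complexes I, III, IV and V is encoded by mitochondrial DNA, and the acid-secreting parietal cell is known for its density of mitochondria.

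Markers of the stomach's own cells were abundant in all 6 libraries: 16 parietal cell markers summed to 5735, 7920.3 and 7107 FPKM in Riclin and 6589, 5655 and 4669.7 FPKM in saline, and 8 chief cell markers summed to between 44048 and 93373 FPKM. The totals implied by the FPKM values ran from 30884067 to 40050267 fragments per library, a 1.30-fold range. Transcripts of pancreatic acinar cells were also present and very uneven: 23 markers took 11.1%, 0.0304% and 10.5% of the fragments in Riclin, and 4.04%, 16.6% and 15.5% in saline. Riclin 3 stood apart, with 6 of the 23, Cela3a, Cpa1, Spink1, Gp2 and Cuzd1 among them, listed at 0 FPKM, and several groups of genes are also counted without it. Because the libraries were deep, the 95% Wilson intervals of these shares, which cover counting error only, were narrow, for example 0.0299% to 0.0310% in Riclin 3 and 15.4% to 15.5% in saline 4. The respiratory subunits took 1.55%, 2.01% and 1.78% of the fragments in Riclin and 1.85%, 1.80% and 1.51% in saline.

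The promoters of a few subunits are shown as sequence, from genes spread over 19 chromosomes. Whether promoters have a part in the differences between libraries was not tested. RefSeq promoter entries on GRCm38.p6 matched 70 of the 85 genes, with 75 promoters of 300 bases, each from 250 bases before the start of the gene to 50 after it. They were searched on both strands for motifs named after factors known to act on respiratory genes: NRF1-type (GCGCANGCG), ETS-type (CCGGAAG), YY1-type (AAGATGGCG) and ERR-type (TCAAGGTCA). The 200 bases before the start are given 5′ to 3′ on the strand of the gene, with a matched motif in capitals. Cycs (chr6:50566570-50566769, minus strand) and Sdhd (chr9:50603850-50604049, minus strand) hold an NRF1-type motif, and Sdhd an ETS-type motif too. Atp5e (chr2:174464102-174464301, minus strand) is the complex V gene with the smallest p, and holds an ETS-type motif. Cox7a1 (chr7:30183971-30184170, plus strand) and Cox7a2 (chr9:79759854-79760053, minus strand) are alternative forms of 1 complex IV subunit, and neither window holds any of the 4 motifs.
Cycs: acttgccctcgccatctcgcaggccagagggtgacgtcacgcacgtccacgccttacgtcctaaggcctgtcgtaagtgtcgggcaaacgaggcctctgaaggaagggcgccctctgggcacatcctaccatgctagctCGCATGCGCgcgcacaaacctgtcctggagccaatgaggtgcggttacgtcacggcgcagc
Sdhd: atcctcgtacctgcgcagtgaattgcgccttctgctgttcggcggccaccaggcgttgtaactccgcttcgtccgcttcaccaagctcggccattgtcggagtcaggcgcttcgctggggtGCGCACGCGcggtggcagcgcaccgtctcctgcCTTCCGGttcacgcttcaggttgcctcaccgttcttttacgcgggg
Atp5e: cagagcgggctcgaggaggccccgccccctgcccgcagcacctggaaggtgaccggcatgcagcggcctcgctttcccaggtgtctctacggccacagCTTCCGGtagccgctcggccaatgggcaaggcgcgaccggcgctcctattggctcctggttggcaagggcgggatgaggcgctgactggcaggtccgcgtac
Cox7a1: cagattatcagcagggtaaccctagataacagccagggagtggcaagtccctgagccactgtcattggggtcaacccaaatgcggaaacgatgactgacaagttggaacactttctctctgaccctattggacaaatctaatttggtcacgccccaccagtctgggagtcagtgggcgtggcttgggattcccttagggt
Cox7a2: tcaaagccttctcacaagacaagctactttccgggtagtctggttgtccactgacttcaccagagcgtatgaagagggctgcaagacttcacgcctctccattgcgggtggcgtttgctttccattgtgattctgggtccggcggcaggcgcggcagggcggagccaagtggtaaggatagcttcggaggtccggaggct

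An NRF1-type motif was present in 22 of the 75 subunit promoters (29.3%), against 12.7% of 11910 promoters of all genes tested and 6.25% of all 32851 promoters in the reference. The YY1-type motif was present in 7 (9.33%, against 2.99% and 1.40%), the ETS-type motif in 17 (22.7%, against 17.2% and 8.86%) and the ERR-type motif in 2 (2.67%, against 0.269% and 0.423%). At least 1 of the 4 motifs was in 38 of the 75 (50.7%), against 29.2% and 15.2%. The printed window of Cox7a1, the form known from heart and skeletal muscle, has 4 CpG pairs and 52% G and C, and that of Cox7a2, the form used in most tissues, has 12 CpG pairs and 57.5%. A match to these letters describes the sequence only.

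The level of respiratory subunit RNA in Riclin stomachs overlapped with that in saline stomachs, for the sum, for each complex and for each tested gene. Summed over all 85 genes, the level was 15800, 20542 and 18144 FPKM in the Riclin libraries, against 19199, 19377 and 15517 FPKM in the saline libraries. Riclin 3 was highest, saline 1 and saline 2 came next, and the lowest sums were 1 library of each group. The means of 18162 ± 2371 FPKM in Riclin and 18031 ± 2179 FPKM in saline (SD, n = 3 each) differed 1.01-fold, less than the spread within either group. In RNA from a mixed tissue, fewer cells of a type and less RNA per cell cannot be told apart.

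**Figure D1:**
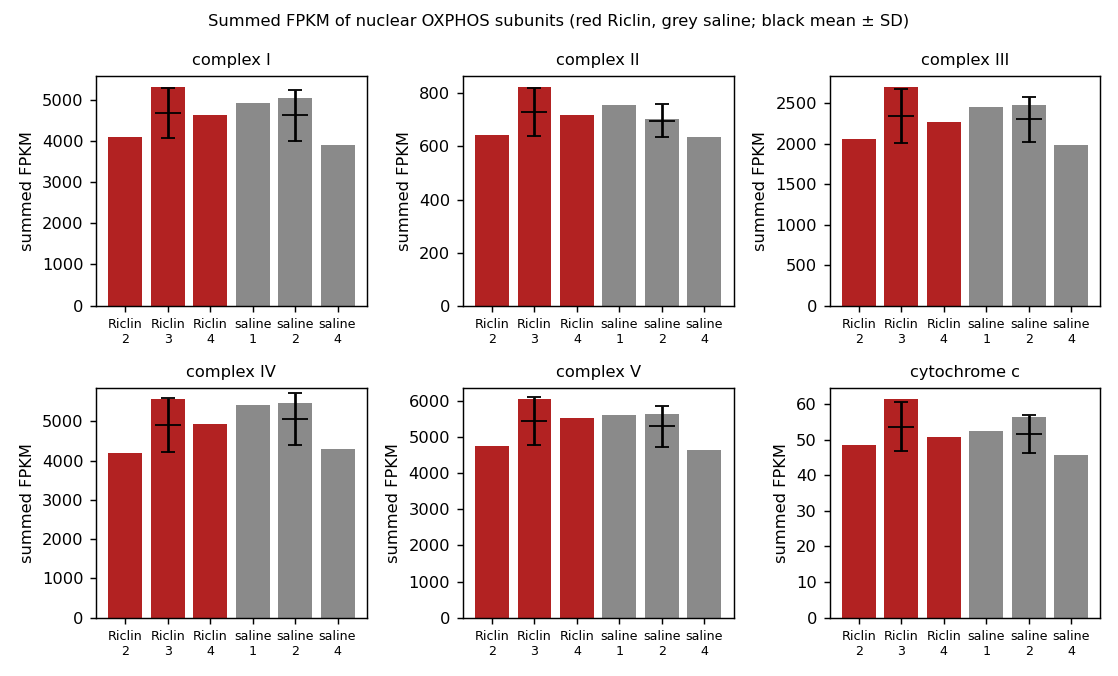
Summed FPKM of the nuclear subunits of each complex and of cytochrome c in each of the 6 libraries (red, Riclin 2, 3 and 4; grey, saline 1, 2 and 4), with the group mean and SD in black and each axis starting at 0. In every panel Riclin 3 is the highest library and saline 4 or Riclin 2 the lowest, so the groups overlap throughout; complex V runs from 4743 to 6062 FPKM in Riclin and from 4653 to 5628 FPKM in saline.

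Of the 85 genes, 83 reached 1 FPKM in at least 3 libraries and were tested with 11738 genes in all, by limma on log2(FPKM + 1), a scale that understates the change of low genes. None of the 83 passed an adjusted p of 0.05 (background 0%), the smallest adjusted p among them being 0.841, and by limma voom on recovered fragment counts 0 passed as well. No subunit had an unadjusted p under 0.05 either, where 5.9% of all genes tested did. The groups did not overlap in 0 of 83 with Riclin higher (background 8.14%) and in 0 of 83 with Riclin lower (background 3.02%). Estimates were higher in Riclin for 53 subunits and lower for 30, with a median log2 fold change of 0.037, beside a median of 0.040 over all genes tested, of which 7195 were higher and 4543 lower. With the acinar genes removed and the libraries rescaled, the split was 11 higher of 83 and the medians were -0.083 for the subunits and -0.062 for all genes tested, a shift of all genes of over 0.1, and with median-of-ratios scaling 34 of 83 were higher. The median of each complex and of cytochrome c was below 0 with the acinar genes removed, from -0.027 for the complex I core to -0.16 for complex IV. Without Riclin 3 these medians were also below 0, from -0.0069 for complex III to -0.10 for complex IV, and without saline 4 they ran from -0.12 for complex IV to 0.0028 for complex II. The 95% intervals rest on the FPKM as deposited and on the spread between these libraries. The interval held 0 for all 83 subunits, lay within 2-fold either way for 82, and within 1.5-fold for 72. The exception at 2-fold was Cox8b, a low gene with the widest standard error (0.365 on the log2 scale, against a median of 0.166).

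**Figure D2:**
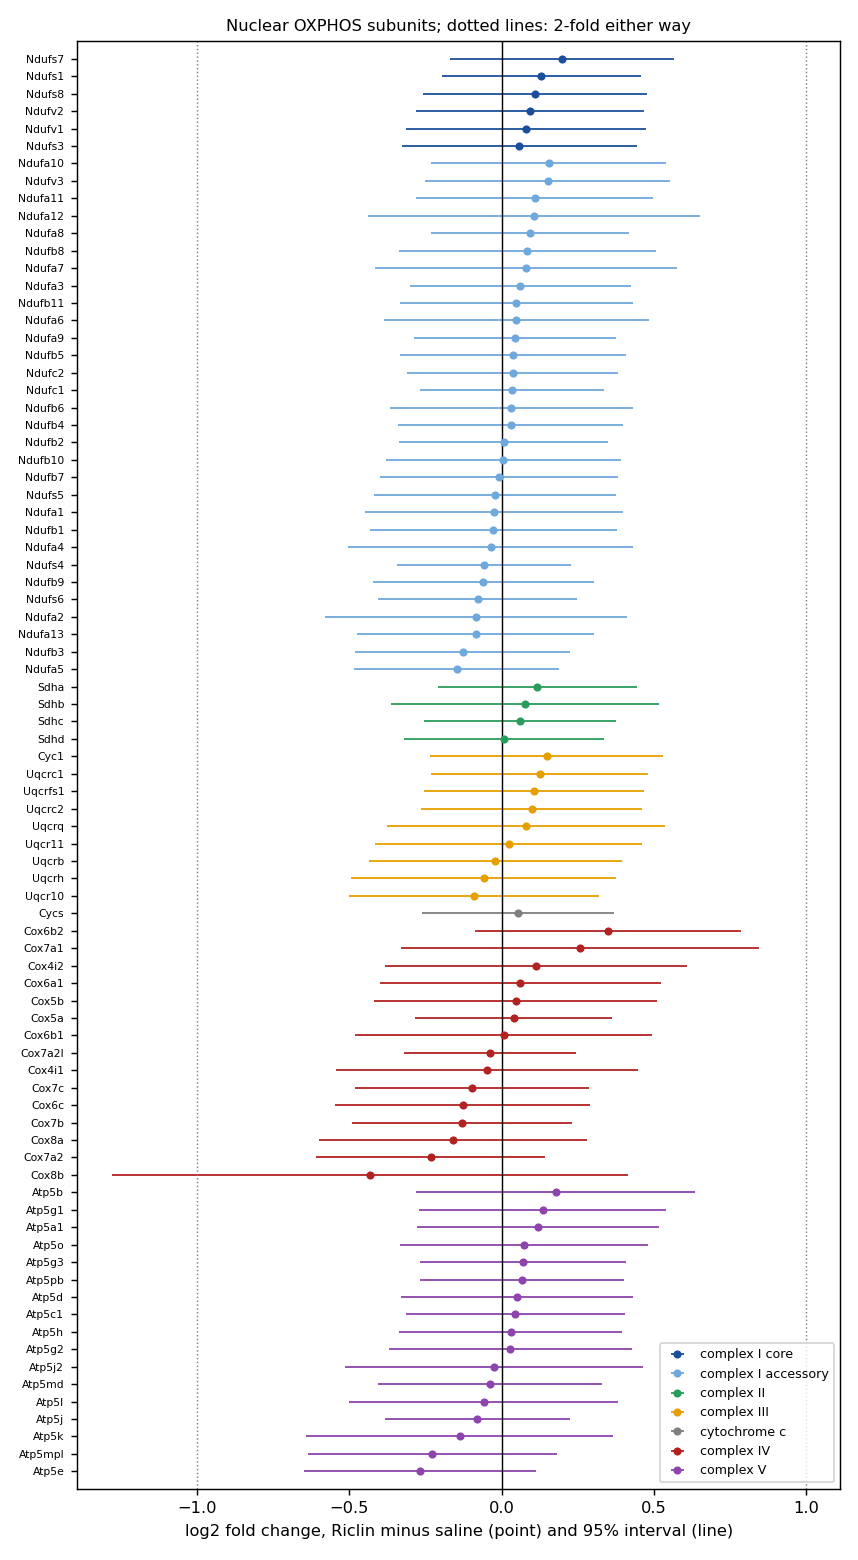
Log2 fold change of 82 of the 83 tested subunits (point, Riclin minus saline) with its 95% limma interval (line), grouped by complex and ordered by estimate, with 2-fold marked by dotted lines. Every interval shown crosses 0, and Cox8b at -0.43 is the one that passes the 2-fold line.

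What varied was the library, and the subunits varied together. Riclin 3 was the highest of the 6 libraries for 47 of the 83 subunits and saline 2 for 26, while saline 4 was the lowest for 51 and Riclin 2 for 24. The median subunit stood -0.16, 0.19 and 0.020 from its own mean (log2) in Riclin, and 0.094, 0.094 and -0.20 in saline. In Riclin 3, 81 of 83 subunits were above their mean, and in saline 4 only 3 were. Each group therefore held one library in which nearly all subunits were low, and the direction of the group difference depended on which library was left out. Without Riclin 3, 19 of 83 subunits were higher in Riclin, without saline 4, 20 were, without Riclin 2, 71 were, and without saline 2, 67 were, with medians between -0.073 and 0.13. The median within-group SD of a subunit was 0.206 on the log2 scale, beside 0.152 over all genes tested, and it fell to 0.0845 once the mean of the subunits in each library was subtracted, a reduction seen in 79 of 83. That shared movement was computed from the same values and is a description, and the matching SD was not computed for other lists. Other lists also stood high in Riclin 3 and low in saline 4. Their median deviations there were 0.24 and -0.16 for citric acid cycle and pyruvate dehydrogenase genes, and 0.23 and -0.21 for glycolysis genes. For mitochondrial ribosomal proteins they were 0.20 and -0.12. Over all genes tested they were 0.10 and -0.036, and for cytosolic ribosomal proteins 0.012 and 0.010.

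**Figure D3:**
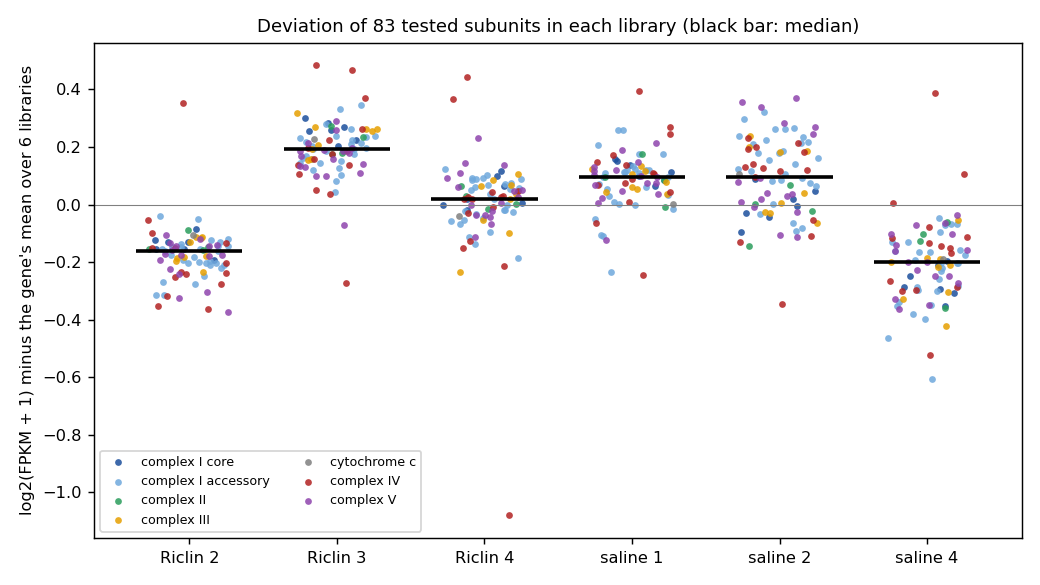
Deviation of each of the 83 tested subunits from its own mean over the 6 libraries, in log2(FPKM + 1), by library (Riclin 2, 3 and 4, then saline 1, 2 and 4), coloured by complex, with the median as a black bar. The medians are -0.16, 0.19 and 0.020 in Riclin and 0.094, 0.094 and -0.20 in saline, and the point near -1.1 in Riclin 4 is Cox8b.

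Other measures differed between the same libraries. The library with the highest subunit level, Riclin 3, was also the one with the fewest acinar fragments (0.0304%) and the highest parietal marker sum (7920.3 FPKM), and the lowest, saline 4, had 15.5% acinar fragments and the lowest parietal sum (4669.7 FPKM). The match was not complete, since saline 2 had the most acinar fragments (16.6%) and a median subunit deviation of 0.094. With median-of-ratios scaling the subunit medians were -0.13, 0.073 and 0.028 in Riclin and 0.027, 0.19 and -0.16 in saline, and the highest library was then saline 2. The part of cell composition or of acinar RNA in these differences was not tested.

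Complex I is the largest complex and the entry point for electrons from NADH. Its 7 nuclear core subunits, which carry the flavin, the iron-sulphur clusters and the ubiquinone site, all had estimates above 0, with a median log2 fold change of 0.093 and 0 of 7 past the test. Ndufs7, the core subunit next to the ubiquinone site, measured 74.1, 95.9 and 84.4 FPKM in Riclin and 83.4, 77.1 and 61.4 FPKM in saline (log2 fold change 0.20, SE 0.158). Ndufs1, the largest core subunit, measured 48.0, 62.6 and 54.7 FPKM in Riclin and 56.6, 48.8 and 45.0 FPKM in saline (log2 fold change 0.13, SE 0.141). Riclin 3 was the highest library for both genes and saline 4 the lowest, and the groups overlapped. Ndufs8, which holds a pair of iron-sulphur clusters, measured 113, 145 and 137 FPKM in Riclin and 135, 128 and 103 FPKM in saline (log2 fold change 0.11, SE 0.158). Its groups overlapped, and its estimate was below 0 with the acinar genes removed (-0.00968) and without saline 4.

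The 30 accessory subunits of complex I, which surround the core and are needed for its assembly and stability, divided into 18 higher and 12 lower (median log2 fold change 0.031), and 0 of 30 passed the test. Ndufa5, an accessory subunit of the matrix arm, measured 79.0, 102 and 79.8 FPKM in Riclin and 98.5, 103 and 86.7 FPKM in saline (log2 fold change -0.15, SE 0.145). Ndufa10 measured 82.1, 121 and 101 FPKM in Riclin and 99.5, 89.4 and 81.0 FPKM in saline (log2 fold change 0.15, SE 0.166), with Riclin 3 its highest library and Riclin 2 and saline 4 its lowest. Ndufv3, a small subunit of the flavin-bearing module, measured 50.7, 69.8 and 55.9 FPKM in Riclin and 62.5, 52.7 and 43.5 FPKM in saline (log2 fold change 0.15, SE 0.173). Ndufa4, named for complex I but since placed in complex IV, was the most abundant of the group at 389, 508 and 392 FPKM in Riclin and 474, 502 and 350.4 FPKM in saline (log2 fold change -0.035, SE 0.202). Its highest values were 1 in each group, and its direction turned without Riclin 2, Riclin 4, saline 1 or saline 2. The remaining 26 accessory subunits averaged between 27.1 FPKM (Ndufa11) and 284 FPKM (Ndufb9), with log2 fold changes from -0.13 (Ndufb3) to 0.11 (Ndufa11).

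Complex II, succinate dehydrogenase, is shared with the citric acid cycle and has no mitochondrially encoded subunit. Its 4 genes had estimates above 0 with a median of 0.069, 0 of 4 past the test, and a median of -0.051 with the acinar genes removed. Sdha, the flavoprotein, measured 127, 159 and 138 FPKM in Riclin and 145, 122 and 124 FPKM in saline (log2 fold change 0.12, SE 0.140). Sdhb, which holds the iron-sulphur clusters, measured 177, 239 and 197 FPKM in Riclin and 223, 207 and 154 FPKM in saline (log2 fold change 0.077, SE 0.190). The membrane anchors Sdhc and Sdhd followed, Sdhc at 167, 209.9 and 194 FPKM in Riclin and 184, 183 and 178 FPKM in saline (log2 fold change 0.061, SE 0.135). Riclin 3 was the highest library for all 4 genes, and the groups overlapped for each. Sdhd, whose promoter is printed above with 2 motifs, averaged 193 ± 22.8 FPKM in Riclin and 191 ± 12.5 FPKM in saline (SD, n = 3 each), a log2 fold change of 0.0079. Sdhd also has an ERR-type motif after the start, outside the printed bases.

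Complex III, the cytochrome bc1 complex, had 6 subunits higher and 3 lower (median 0.080, 0 of 9 past the test). Of its electron carriers, Cyc1, cytochrome c1, measured 167, 217 and 192 FPKM in Riclin and 195, 178 and 146 FPKM in saline (log2 fold change 0.15, SE 0.165). Uqcrfs1, the Rieske iron-sulphur protein, measured 162, 213 and 179 FPKM in Riclin and 187, 173 and 152 FPKM in saline (log2 fold change 0.11, SE 0.155). The core protein gene Uqcrc1 measured 215, 279.7 and 239 FPKM in Riclin and 243, 223 and 205 FPKM in saline (log2 fold change 0.13, SE 0.153). In these 3 genes Riclin 3 was highest and saline 4 lowest. Uqcrh, the hinge protein and the most abundant of the complex, measured 393, 521 and 421 FPKM in Riclin and 491, 512 and 387 FPKM in saline (log2 fold change -0.059, SE 0.188), with saline 2 close to Riclin 3 and the lowest values 1 in each group. Cycs, the soluble carrier between complexes III and IV, measured 48.5, 61.5 and 50.8 FPKM in Riclin and 52.4, 56.3 and 45.7 FPKM in saline (log2 fold change 0.055, SE 0.136). Cycs stood at 52.5 FPKM over the 6 libraries, below the median subunit at 143 FPKM. It has many processed pseudogenes, and the labels do not say how fragments shared with such copies were assigned, so levels of subunits with near copies are uncertain.

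Complex IV, cytochrome c oxidase, had the lowest median of the complexes, -0.037, with 7 of 15 tested subunits higher and 8 lower and 0 past the test. Cox6a1 was its most abundant member at 690.1, 878 and 792 FPKM in Riclin and 814, 833 and 622 FPKM in saline (log2 fold change 0.062, SE 0.198). Cox7a2 measured 192, 232 and 204 FPKM in Riclin and 273, 263 and 206 FPKM in saline (log2 fold change -0.23, SE 0.162). Saline 1 and saline 2 were the highest libraries for Cox7a2, and saline 4 lay inside the Riclin range. With the acinar genes removed its log2 fold change was -0.35 (unadjusted p = 0.0208, adjusted p = 0.532, limma).

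Several complex IV subunits exist in tissue forms, and the stomach used the general form of nearly all of them. Cox4i1 measured 626, 855 and 772 FPKM in Riclin and 898, 809 and 629 FPKM in saline (log2 fold change -0.048, SE 0.214). Cox4i2, a form known from lung, measured 1.77, 3.78 and 2.50 FPKM in Riclin and 2.62, 1.72 and 2.72 FPKM in saline (log2 fold change 0.11, SE 0.214). Cox4i2 thus made up 0.282%, 0.440% and 0.322% of the pair in Riclin and 0.291%, 0.212% and 0.430% in saline. These shares overlapped, as did those of every pair below. Cox6b1 measured 630.0, 871 and 759 FPKM in Riclin and 819, 821 and 611 FPKM in saline (log2 fold change 0.0067, SE 0.210). Cox6b2, best known from testis, measured 3.28, 1.77 and 3.56 FPKM in Riclin and 1.83, 2.11 and 1.98 FPKM in saline, with Riclin 2 and Riclin 4 above every saline library and Riclin 3 below them all. It had the smallest unadjusted p of all subunits (0.101, log2 fold change 0.35, SE 0.188), and without Riclin 3 its log2 fold change was 0.57 (unadjusted p = 0.00185, adjusted p = 0.403, limma). It rests on few fragments, 37 to 82 per library.

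Cox8a measured 381, 527 and 496 FPKM in Riclin and 552, 556 and 451 FPKM in saline (log2 fold change -0.16, SE 0.189). Cox8b, the form of heart, skeletal muscle and brown fat in mice, measured 2.96, 4.75 and 0.942 FPKM in Riclin and 4.39, 2.75 and 4.37 FPKM in saline (log2 fold change -0.43, SE 0.365). Riclin 4 was the lowest library and Riclin 3 the highest, so the Riclin values spanned those of saline. Without Riclin 4 the log2 fold change of Cox8b was -0.0012, and without Riclin 3 it was -0.78 (unadjusted p = 0.0376, adjusted p = 0.813, limma). Its counts were 13 to 69 fragments per library. Cox7b measured 200.5, 246 and 189.6 FPKM in Riclin and 232, 252 and 209 FPKM in saline (log2 fold change -0.13, SE 0.156), and the groups overlapped. Cox6a2, the muscle form of Cox6a1, and Cox7b2, a form of Cox7b, did not reach the filter, with 0 to 8 and 0 to 4 fragments per library, and no difference was detectable at this depth.

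Among the muscle forms, Cox7a1 had by far the highest FPKM. It measured 60.2, 100.04 and 99.8 FPKM in Riclin and 73.7, 88.8 and 53.3 FPKM in saline (log2 fold change 0.26, SE 0.253), and Riclin 3 and Riclin 4 were the highest libraries while Riclin 2 lay below saline 1 and saline 2. Cox7a1 made up 23.9%, 30.1% and 32.9% of the sum of Cox7a1 and Cox7a2 in Riclin and 21.2%, 25.3% and 20.5% in saline, means of 28.9% ± 4.60 in Riclin and 22.3% ± 2.55 in saline (SD, n = 3 each). Riclin 2 fell inside the saline range, so these shares overlapped. The third relative, Cox7a2l, which links complexes III and IV in supercomplexes, measured 103, 115 and 110.1 FPKM in Riclin and 114, 121 and 102 FPKM in saline (log2 fold change -0.037, SE 0.122). Beside Cox7a1, 10 smooth muscle markers summed to 1414, 1590.3 and 1627 FPKM in Riclin and 1643, 1993 and 1528 FPKM in saline. All 12 skeletal muscle markers, of which 5 passed the filter, summed to 18.4 to 28.2 FPKM in Riclin and 19.1 to 29.9 FPKM in saline. Among the skeletal markers below the filter were Myh1, Myh2, Myh4, Atp2a1 and Pvalb, and the part of muscle in the Cox7a1 values was not tested.

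**Figure D4:**
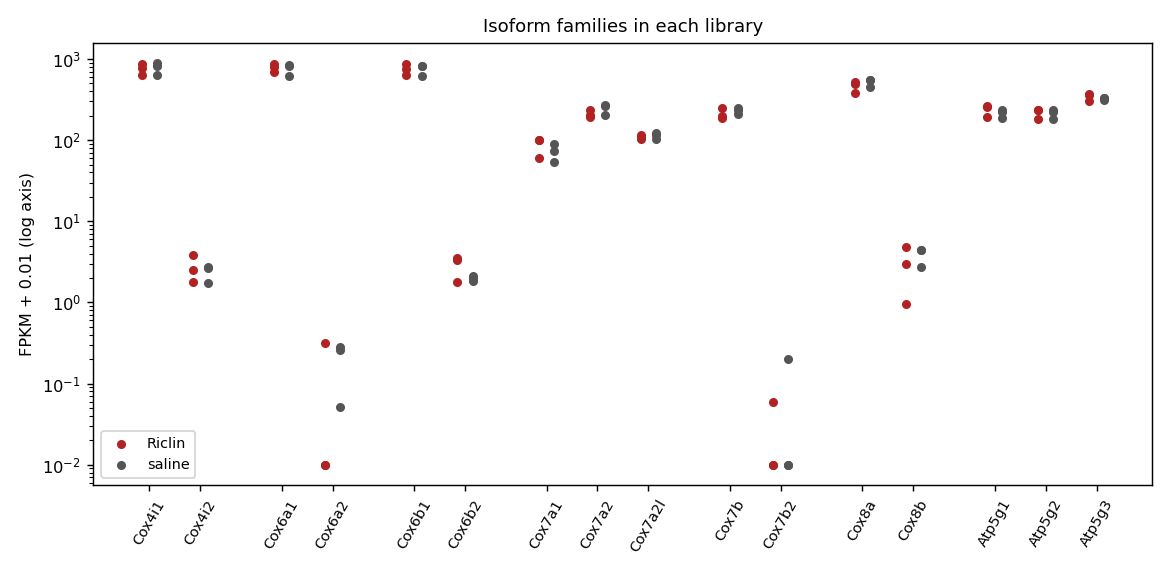
FPKM + 0.01 on a log axis for each member of the 7 isoform families, in Riclin (red, left) and saline (grey, right), 1 point per library. Cox4i2, Cox6b2 and Cox8b lie near 1 to 5 FPKM well below their partners, Cox6a2 and Cox7b2 lie at or near 0, while Cox7a1 and the 3 Atp5g genes are of the same order as their partners, and the groups overlap for every gene.

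Complex V, the ATP synthase, had the highest summed FPKM of the complexes in every library, with Ndufa4 counted in complex I by its symbol. In saline 1 the sums were 5616 FPKM for complex V and 5413 FPKM for complex IV, and Ndufa4 measured 474 FPKM. The ranking there turns if Ndufa4 is counted in complex IV. The 17 subunits of complex V divided into 10 higher and 7 lower (median 0.030, 0 of 17 past the test). Atp5b, the catalytic beta subunit (gene at chr10:128083273-128090391, plus strand, GENCODE M21 on GRCm38), was the most abundant of all 85 genes at 974, 1294 and 1128 FPKM in Riclin and 1092, 977 and 919 FPKM in saline (log2 fold change 0.18, SE 0.197). Riclin 3 and Riclin 4 were its highest libraries, and Riclin 2 lay below saline 1 and saline 2. Atp5e, the epsilon subunit of the central stalk, measured 214, 255 and 268 FPKM in Riclin and 286, 339.9 and 262 FPKM in saline (log2 fold change -0.27, SE 0.164). Saline 2 was highest and Riclin 2 lowest for Atp5e, and saline 4 fell inside the Riclin range. Atp5mpl, a small membrane subunit, measured 85.7, 119 and 106 FPKM in Riclin and 117, 144 and 103 FPKM in saline (log2 fold change -0.23, SE 0.176), with the same highest and lowest libraries. The other subunits ran from -0.14 (Atp5k) to 0.14 (Atp5g1) in log2 fold change.

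The c subunit, which forms the rotating ring of the membrane motor, is encoded by Atp5g1, Atp5g2 and Atp5g3, and the last 78 codons of the 3 genes encode the same residues from unlike DNA. The last 150 coding bases are given from GENCODE M21 on GRCm38, 5′ to 3′, with capitals at the 39 positions where the 3 are not all alike. The genes lie at chr11:96068852-96075670, chr15:102662864-102672352 and chr2:73908447-73911326, all on the minus strand.
Atp5g1: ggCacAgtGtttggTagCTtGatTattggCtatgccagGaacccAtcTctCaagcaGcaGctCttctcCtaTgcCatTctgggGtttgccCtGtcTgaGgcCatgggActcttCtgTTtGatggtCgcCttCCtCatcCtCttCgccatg
Atp5g2: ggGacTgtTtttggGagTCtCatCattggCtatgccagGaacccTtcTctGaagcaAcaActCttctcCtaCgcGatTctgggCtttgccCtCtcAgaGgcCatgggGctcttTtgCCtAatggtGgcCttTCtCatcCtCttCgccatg
Atp5g3: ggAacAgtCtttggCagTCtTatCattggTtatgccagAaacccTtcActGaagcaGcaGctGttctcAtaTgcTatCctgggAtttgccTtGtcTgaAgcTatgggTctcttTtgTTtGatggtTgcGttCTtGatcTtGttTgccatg

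Over the 234 shared coding bases, identity was 84.6% between Atp5g1 and Atp5g2, 78.6% between Atp5g1 and Atp5g3, and 77.4% between Atp5g2 and Atp5g3. The longest run of identical bases between any pair of the transcripts was 21 bases. Atp5g3 measured 304, 358 and 367 FPKM in Riclin and 334, 332 and 311 FPKM in saline (log2 fold change 0.071, SE 0.146). Atp5g1 measured 192, 257 and 264 FPKM in Riclin and 237, 220.5 and 189 FPKM in saline (log2 fold change 0.14, SE 0.175). Atp5g2 measured 181, 237 and 237 FPKM in Riclin and 237, 220.3 and 183 FPKM in saline (log2 fold change 0.029, SE 0.171). Atp5g3 was the leading source of c subunit RNA in all 6 libraries, at 44.9%, 42.0% and 42.3% of the sum of the 3 in Riclin and 41.4%, 42.9% and 45.5% in saline. The share of Atp5g1 was 28.4%, 30.2% and 30.4% in Riclin and 29.3%, 28.5% and 27.7% in saline, so the makeup of the c subunit pool overlapped between the groups.

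Longer subunit genes had higher estimates than shorter ones. The FPKM values imply a length for each gene, 320 to 4137 bases among the tested subunits with a median of 772, against a median of 3308 over all genes tested. For the 48 subunits under 1000 bases the median log2 fold change was -0.014, with 23 higher in Riclin, and for the 35 longer ones it was 0.080, with 30 higher, a length limit chosen after the values were seen. Across the 83 subunits, which share the same 6 libraries and are not independent replicates, Spearman's rho of length and log2 fold change was 0.53, and across all 11738 genes tested it was 0.18. In the libraries themselves, the median deviations of short and long subunits differed most in saline 2. They stood at -0.20 and -0.14 in Riclin 2, 0.18 and 0.23 in Riclin 3, 0.0012 and 0.035 in Riclin 4, 0.094 and 0.095 in saline 1, 0.18 and 0.010 in saline 2, and -0.20 and -0.20 in saline 4. Without saline 2, rho among the subunits was 0.25 and the medians were 0.071 for short and 0.12 for long subunits. Without Riclin 3 the medians were -0.11 for short and -0.012 for long subunits. Whether RNA quality differed in saline 2 was not tested.

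**Figure D5:**
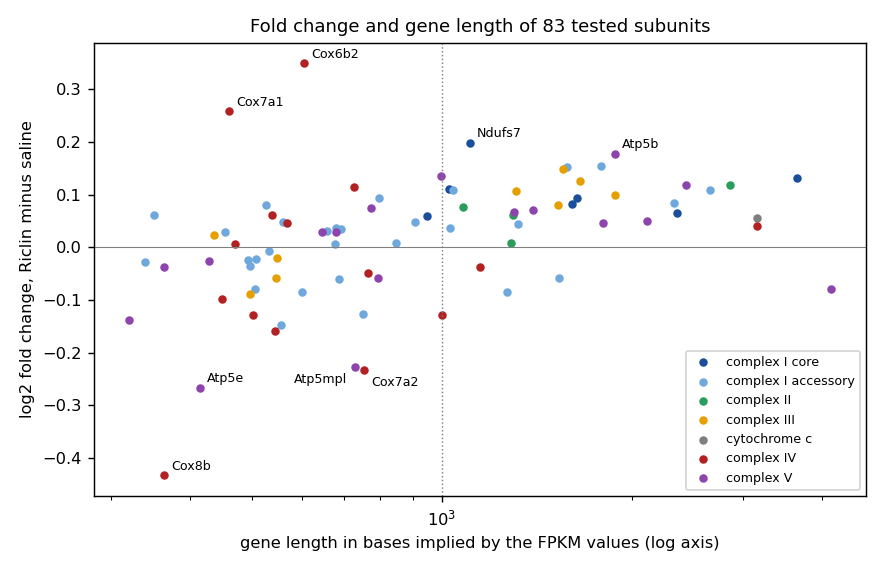
Log2 fold change (Riclin minus saline) of each tested subunit against the gene length implied by the FPKM values, on a log axis, coloured by complex, with 1000 bases dotted. Points right of the dotted line lie mostly above 0 (30 of 35), those left of it lie on both sides (23 of 48 above), and Cox6b2, Cox7a1 and Cox8b lie farthest from the rest at their lengths.

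The 12 tested subunits encoded by mitochondrial DNA, which join the nuclear subunits in complexes I, III, IV and V, had estimates above 0 in all 12 cases, with a median log2 fold change of 0.29. With ATP8, which did not reach the filter, the 13 summed to 18281, 18974 and 18862 FPKM in Riclin and 16897, 15631 and 15396 FPKM in saline, so every Riclin library exceeded every saline library. With the acinar genes removed and the libraries rescaled, the sums were 22008, 18983 and 22529 in Riclin and 18035, 20711 and 20136 in saline, and Riclin 3 then lay below saline 2 and saline 4. Cell markers also differed between these libraries: 15 of 16 parietal markers were higher in Riclin (median log2 fold change 0.34). The 8 chief cell markers summed to 74254, 93373 and 77501 FPKM in Riclin and 71819.5, 44048 and 54754 FPKM in saline. Every Riclin sum lay above every saline sum, but only 5 of the 8 chief cell markers had estimates above 0 and 3 were lower. The lowest of the 8 stood at -3.5, beside a median of -3.2 for the 23 acinar markers, and without Riclin 3, 6 of the 8 were higher. The part of parietal, chief or acinar cells in the mitochondrial values was not tested. The groups did not overlap in 8 of the 12, beside the 8.14% of all genes given above, and 0 passed an adjusted p of 0.05. An unadjusted p under 0.05 was reached by 1 of the 12, beside 5.9% of all genes tested, by 3 of the 12 without saline 4, and by 4 with limma voom or with a robust variance prior. ND2 measured 1363, 1293 and 1474 FPKM in Riclin and 1153, 994 and 929.5 FPKM in saline (log2 fold change 0.43, SE 0.191, adjusted p = 0.820). ND5 measured 1089, 1185 and 1151 FPKM in Riclin and 963, 915 and 768 FPKM in saline (log2 fold change 0.38, SE 0.183, adjusted p = 0.823). Both encode membrane subunits of complex I, and in both every Riclin value lay above every saline value. ND3, also a complex I subunit but at a low level, measured 1.39, 1.58 and 1.66 FPKM in Riclin and 0.739, 0.798 and 1.02 FPKM in saline (log2 fold change 0.46, SE 0.111, adjusted p = 0.682). The median was 0.17 with the acinar genes removed, where 11 of 12 were higher, and 0.24 with median-of-ratios scaling. Without Riclin 3 it was 0.30 with 12 of 12 higher, and without Riclin 2 or without saline 2, 10 of 12 were higher. Set against the nuclear subunits in the same library, the mitochondrially encoded FPKM was 1.16, 0.924 and 1.04 times as high in Riclin and 0.880, 0.807 and 0.992 times as high in saline, and these ratios overlapped. No test was made of the difference between the sets.

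Assembly factors, which build the complexes but are not part of them, had 33 of 47 tested members higher and 14 lower (median 0.049, or -0.063 with 18 higher once the acinar genes were removed), with 0 past an adjusted p of 0.05. Without Riclin 3, 20 of 47 were higher (median -0.023), and without saline 4, 20 of 47 (median -0.010). An unadjusted p under 0.05 was reached by 2 of 47, beside 5.9% of all genes tested, and the groups did not overlap in 6 of 47, all with Riclin higher, beside 8.14% of all genes tested. Timmdc1, a complex I assembly factor, measured 7.82, 8.90 and 8.41 FPKM in Riclin and 7.12, 6.86 and 5.25 FPKM in saline (log2 fold change 0.35, SE 0.125, adjusted p = 0.791). Cox19 and Cox15, which serve copper delivery and haem a synthesis for complex IV, had log2 fold changes of 0.31 and 0.22 and groups that did not overlap. Regulators of mitochondrial genes had 14 of 15 tested members higher (median 0.10), or 10 of 15 with median-of-ratios scaling, 8 with the acinar genes removed and 9 without Riclin 3. Among the 15, 3 had an unadjusted p under 0.05, beside 5.9% of all genes tested, and 0 an adjusted one. That count was 0 without Riclin 2 or without saline 2, and 1 without Riclin 3 or without saline 4. Ppargc1a, the coactivator known for driving mitochondrial gene expression, measured 1.19, 1.15 and 1.13 FPKM in Riclin and 0.836, 0.550 and 0.763 FPKM in saline (log2 fold change 0.33, SE 0.111, adjusted p = 0.778), and all Riclin values lay above all saline values at this low level. Esrrg, a nuclear receptor that is also on the parietal marker list, measured 16.8, 18.3 and 12.9 FPKM in Riclin and 13.0, 11.1 and 11.4 FPKM in saline (log2 fold change 0.39, SE 0.141, adjusted p = 0.791), and its groups overlapped. Of the 16 parietal markers, 6 had an unadjusted p under 0.05, beside the same 5.9%, and 0 had one without Riclin 3, without saline 2 or without saline 4. The part of parietal cells in either list was not tested.

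The enzymes that feed the chain showed 14 of 17 citric acid cycle and pyruvate dehydrogenase genes higher (median 0.11, or -0.012 with the acinar genes removed and 0.011 with 10 of 17 higher without Riclin 3), with 0 past the test. The list of ATP, ADP and phosphate carriers and porins also holds Atpif1, which is neither. All 7 tested genes of that list had estimates above 0 (median 0.076, or -0.044 with the acinar genes removed and 0.0018 with 4 of 7 higher without Riclin 3), with 0 past the test. The phosphate carrier Slc25a3 measured 391, 523 and 447 FPKM in Riclin and 413, 374 and 380.4 FPKM in saline (log2 fold change 0.21, SE 0.165, adjusted p = 0.882), with Riclin 3 and Riclin 4 highest and Riclin 2 inside the saline range. Glycolysis genes had 14 of 17 higher (median 0.10, or -0.021 with the acinar genes removed and 0.034 with 9 of 17 higher without Riclin 3). Of the 17, 1 had an unadjusted p under 0.05, beside 5.9% of all genes tested. It was the hexokinase Hk2 (log2 fold change 0.42, adjusted p = 0.699, limma). In the mitochondrial stress list, 7 of 10 tested genes were higher (median 0.065, or -0.053 with the acinar genes removed and 0.045 with 6 of 10 higher without Riclin 3) and 0 passed an adjusted p of 0.05. Of the 10, 1 had an unadjusted p under 0.05, beside the same 5.9%. It was the stress-induced transcription factor Ddit3 (log2 fold change 0.37).

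Mitochondrial ribosomal proteins, which translate the mitochondrially encoded subunits, had 51 of 78 members higher and 27 lower, with a median of 0.030 (or -0.087 with the acinar genes removed and -0.019 with median-of-ratios scaling) and 0 past an adjusted p of 0.05. Without Riclin 3, 23 of 78 were higher (median -0.052), and without saline 4, 33 of 78 (median -0.019). Mrps18c had the smallest p of them, at 48.8, 55.2 and 47.1 FPKM in Riclin and 74.6, 70.7 and 57.6 FPKM in saline (log2 fold change -0.41, SE 0.135, adjusted p = 0.778). Cytosolic ribosomal proteins had 79 of 82 tested members lower and 3 higher, with a median of -0.19. Their groups did not overlap in 23, all with Riclin lower, beside the 3.02% of all genes given above. Of the 82, 1 had an unadjusted p under 0.05, beside 5.9% of all genes tested, and 0 an adjusted one. With the acinar genes removed the median was -0.31 and 14 of 82 had an unadjusted p under 0.05, beside 946 of all 11715 genes tested. With median-of-ratios scaling 6 of 82 had, beside 939 of all 11738. With upper-quartile scaling 6 of 82 had, beside 957 of all 11738. They summed to 29084, 32495 and 30889 FPKM in Riclin and 32994, 40584 and 32855 FPKM in saline, with saline 2 far above the rest. The median was -0.12 without saline 2, and -0.24 without Riclin 3, where 4 of 82 were higher.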

How the data were processed

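RNA from 6 mouse stomach libraries, 3 Riclin and 3 saline, was analysed from 1 table of FPKM values (fragments scaled to gene length and library total) that the authors deposited. Per the submitters' processing notes, Bowtie2 and the genome build mm10 were used, with no version or role named. Not given in the sources used here are the counting tool, the annotation and the strand setting. TRIzol RNA and a VAHTS library kit were used, per the labels' protocols.

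Ratios between FPKM values recovered a whole number of fragments and a gene length for 23546 of 23550 genes (relative tolerance 1e-09), and from these the total of each library. Shares of fragments carry counting error only, since molecules were not marked.

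Groups came from the treatment labels. Genes with at least 1 FPKM in at least 3 libraries (11738) were tested by limma 3.58.1 (R 4.3.3) with a mean trend on log2(FPKM + 1), two-sided, with Benjamini-Hochberg adjustment over all of them, after a check on simulated data. Fold changes are Riclin minus saline. No test was made over a list.

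The members and gene lists were chosen with earlier results of these data known. Members named with values in each library were the 3 with the smallest p and the most abundant one in each complex, and the isoform families, and other lists gave up to 3 with the smallest p. A few of the genes so chosen are not reported here. Mitochondrial genes were matched by their names in the table, such as ND2. Limma voom on the recovered counts, the length limit of 1000 bases and the printed promoters were chosen after the values were seen. Other alternatives changed the pseudocount, the filter, the scaling, the variance prior and the libraries used.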

Additional observations from a re-analysis of the deposited data

How the results depend on the processing

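Across the 16 alternative settings no subunit passed an adjusted p of 0.05. Counted over the settings, 51 single-gene estimates changed sign and 13 counts moved, either by over 1.5 times or up from 0, as given below.

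With the acinar genes removed, 2 genes passed an adjusted p of 0.05 by limma, 1 subunit (Cox7a2) had an unadjusted p under 0.05 and 11 of 83 subunits were higher in Riclin. Log2 fold changes that turned below 0 there were Ndufs8 -0.00968, Sdha -0.0019, Sdhc -0.059, Sdhb -0.043, Uqcrfs1 -0.013, Cycs -0.064, Cox6a1 -0.059, Cox6b1 -0.11, Atp5g2 -0.091, Atp5g3 -0.050, Slc25a5 -0.033 and Atf4 -0.0014. That rescaling divides by the share of FPKM left, which was 0.831, 0.9995 and 0.837 in Riclin and 0.937, 0.755 and 0.765 in saline. With median-of-ratios scaling 34 subunits were higher, Cox6b1 was at -0.044 and Atp5g2 at -0.022, and with upper-quartile scaling these were at -0.029 and -0.0065. With no filter 1224 genes had an unadjusted p under 0.05 and with a filter of 5 FPKM 376, against 693, since the number of genes tested differs. The robust prior called 2 genes, no subunit.

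Leaving out 1 library moved the number of subunits higher in Riclin between 19 and 71, the number with an unadjusted p under 0.05 between 0 and 2, the number of all genes past an adjusted p of 0.05 between 0 and 1, and the log2 fold changes of these genes across 0: Ndufs8 -0.0047 to 0.21, Ndufa4 -0.19 to 0.066, Sdhc -0.012 to 0.15, Sdhb -0.084 to 0.18, Uqcrh -0.18 to 0.025, Uqcrfs1 -0.0010 to 0.20, Cycs -0.046 to 0.12, Cox6a1 -0.073 to 0.15, Cox4i1 -0.19 to 0.077, Cox4i2 -0.092 to 0.30, Cox6b1 -0.13 to 0.13, Cox7a2l -0.10 to 0.016 and Atp5g2 -0.078 to 0.16. Beyond the library left out, the cause was not tested.

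The replicate block used the numbers in the titles, of which the groups share 2 and 4. Deviations of same-numbered libraries correlated at 0.22 and 0.011, and nothing says that a number pairs animals. With the replicate block 1 subunit had an unadjusted p under 0.05 (Cox6b2), and Sdhc was at -0.0017, Cycs at -0.030, Cox4i2 at -0.030 and Cox6b1 at -0.034. Leaving out saline 1 and Riclin 3 together gave the same 4 estimates, because the block leaves the same 4 libraries to compare.

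With 3 libraries a group, a median standard error of 0.166 (log2) limits what could be detected, and the low isoforms are also limited by their fragment counts.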
